A study of Oryza sativa with 12 samples.

Results

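In rice, 60 annotated loci had their highest transcript level in 5-day wild-type seedlings and were well below that level in each of 3 groups of 12-day plants. They were chosen from the deposited values themselves, as loci holding 1 annotated gene with at least 5 FPKM (fragments counted per transcript length and library size) in 5-day wild type and at least 3 times the value of the wild type at 12 days and of each knockout line. They were 60 of 36019 single-gene loci, of 37672 loci in all, and 0.419% of the 14316 single-gene loci at 5 FPKM or more in 5-day wild type. The same rule turned to 12-day wild type held for 145 loci. A further 151 loci had at least 5 FPKM in all 3 of the 12-day groups and at least 3 times the level of 5-day wild type.

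The series measured RNA by sequencing in whole aerial parts of the cultivar Nipponbare, in 12 samples with 3 biological replicates in each of 4 groups. Wild-type plants were sampled at 5 and at 12 days, and T3 plants of a pair of lines, a and b, that lack OsC3'H1, an enzyme of lignin synthesis, at 12 days. All plants were raised at 27 °C under a 12 h photoperiod on half-strength MS (Murashige and Skoog) medium set with 0.4% agar. At day 7 the wild-type plants were moved to a hypotonic tap-water solution, so the 5-day plants were taken before that move, and no move is described for the knockouts. Age and the move thus cannot be told apart between the wild-type groups, nor genotype and the move between the 12-day groups. Sample titles and source names give the letters of the knockout lines opposite ways. The letters here are those of the titles, and the values of the lines swap if the source names hold.

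The authors' deposited table gives 1 FPKM value per group, so the spread between replicates and the sequencing depth behind a value are unknown. The target locus Os05g0494000 was at 65.7 and 53.1 FPKM in the wild type (5 and 12 days) and at 10.7 and 12.9 FPKM in lines a and b. Leaf genes were abundant in every group but not at like levels. RBCS, the small subunit of Rubisco, was at 20083 and 23720 FPKM in the wild type (5 and 12 days) and at 1507 and 1452 FPKM in lines a and b. Of 6 named seed genes the summed level was between 3.73 and 7.61 FPKM, and the amylase gene AMY1A was listed at 0 throughout. The amylase gene AMY3D reached 4.51 FPKM in line b, called higher than 5-day wild type and line a. It was at 1.15 FPKM or less in the other groups. The storage protein gene GLUA2 was at 2.41 to 3.22 FPKM, in a deposited locus that holds several genes. The summed level of 4 root genes was 11.7 and 2.44 FPKM in the wild type (5 and 12 days) and 7.14 and 7.78 FPKM in lines a and b. Nearly all of it was the silicon channel Lsi1, while the root transporters Lsi2 and NRT2.1 were listed at 0 in all groups. The meristem factors OSH1 and OSH15 were listed at 0 in 5-day wild type and between 2.39 and 5.91 FPKM in the other groups. The part of root or meristem tissue in the levels of the 60 loci was not tested.

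Plants capture light with chlorophyll a/b-binding antenna proteins, which are encoded in the nucleus by a family of closely related genes and imported into the chloroplast. A young grass shoot at this stage passes from growth on seed reserves to growth on its own photosynthesis. Hormones such as ethylene, made from ACC by ACC synthase and ACC oxidase, and gibberellin, made through kaurene and kaurenoic acid, act on the elongation of such seedlings.

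Symbols were written down for 6 of the 60 loci once these had been chosen, and all 6 were found in RefSeq. The other 54 were not searched for there by position. Of the 6, 3 were antenna genes, among the 4 highest in level, which gives no share of antenna genes in the 60. CAB2R (Os01g0600900, chromosome 1, 23607362 to 23608541 on IRGSP-1.0) stood at 840 FPKM at 5 days and 273 at 12 days in the wild type, and at 43.0 in line a and 29.9 in line b. RCABP89 (Os03g0592500, chromosome 3, 22000042 to 22014137) stood at 430, 92.9, 24.5 and 18.2 FPKM in the same order. CAB1R (Os09g0346500, chromosome 9, 10845778 to 10847012) stood at 319, 53.1, 29.4 and 29.0 FPKM. By the choice of loci the 5-day value was highest in each of these 3 genes. Among the other groups 12-day wild type came next and both knockout lines were lowest. In bulk tissue, fewer cells of a type and less RNA per cell cannot be told apart. Antenna genes resemble each other in sequence, and how reads that fit several copies were shared is not given in the sources used here, so the split between copies is uncertain. The deposited locus of RCABP89 spans 14095 bases, while the RefSeq gene of that symbol spans 1348, so its value may include other transcripts.

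**Figure D1:**
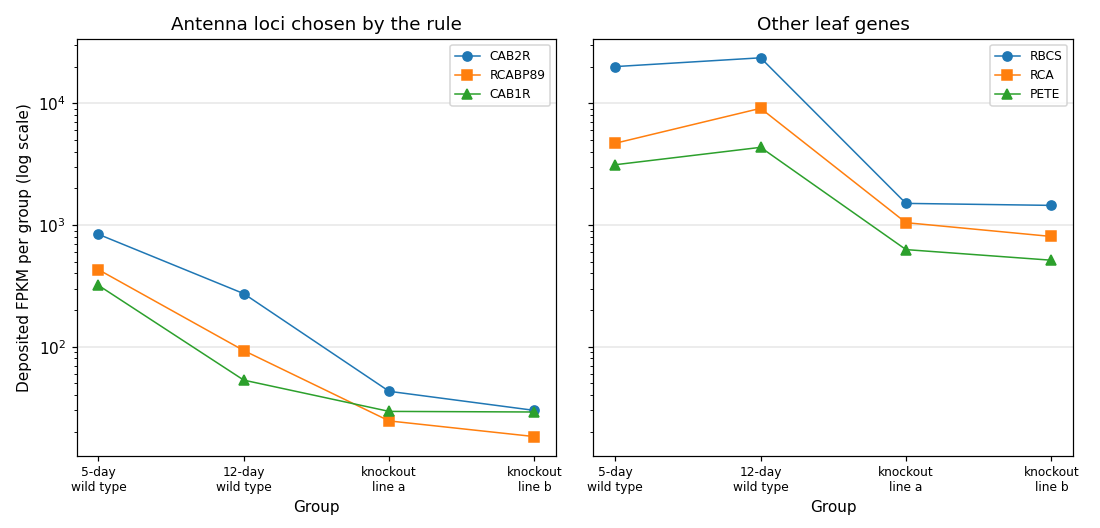
Deposited FPKM (log scale, 1 value per group with no error available) of the 3 antenna genes among the 60 loci (left) and of 3 other leaf genes (right) in 5-day wild type, 12-day wild type, knockout line a and knockout line b, with lines only joining the values of 1 gene. By the choice of loci the antenna genes were highest at 5 days (840, 430 and 319 FPKM). RBCS, RCA and PETE had their highest values in 12-day wild type, but RBCS was not called higher there than at 5 days.

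Of 7 other genes of the photosynthetic apparatus, 4 were called higher at 12 than at 5 days in the wild type, 2 were not called and 1 was called lower. In the authors' deposited table RBCS stood at 20083 FPKM at 5 days and 23720 at 12 days, a log2 ratio of 0.24 ± 0.31 (implied error, the deposited log2 ratio over its test statistic) that was not called at q under 0.05. At 12 days 14.8% of all tested loci were called higher than at 5 days. RCA, which activates Rubisco, was one of them (4706 to 9116 FPKM, log2 0.95 ± 0.34), as was PETE, plastocyanin (3133 to 4355 FPKM, log2 0.48 ± 0.23). Of a photosystem list of 4 genes, 2 were called higher at 12 days, 1 was called lower and 1 was not called. The photosystem II subunits PSBW and PSB28 were the 2 higher ones, with log2 ratios of 0.51 ± 0.22 and 0.43 ± 0.21. The lower one was RCABP69 (Os07g0562700), a further antenna gene that did not reach the ratio of 3, at 443 FPKM at 5 days and 186 at 12 days (log2 -1.25 ± 0.20). This photosystem list was written with values of these data in view.

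The antenna genes were also lower in both knockout lines than in 12-day wild type. The choice of loci did not use this pair of comparisons, but it set a ceiling on each of the groups compared. A locus raised past that ceiling in a knockout line could not be chosen, so these comparisons are not free of the choice. CAB2R was 6.35-fold lower in line a (log2 -2.67 ± 0.23, deposited q = 0.000253) and 9.12-fold lower in line b (log2 -3.19 ± 0.24, deposited q = 0.000253). RCABP89 was 3.79-fold lower in line a and 5.10-fold lower in line b, with log2 ratios of -1.92 ± 0.29 and -2.35 ± 0.31. CAB1R was 1.81-fold lower in line a and 1.83-fold lower in line b, with log2 ratios of -0.85 ± 0.25 and -0.87 ± 0.24. Both comparisons share the 12-day wild type, so the lines are not independent evidence of each other. All 4 genes of the photosystem list and RBCS, RCA and PETE were also called lower in both lines, so the fall was not particular to the chosen antenna genes. The deposited log2 ratios in lines a and b were -3.98 and -4.03 for RBCS, -3.12 and -3.50 for RCA, and -2.79 and -3.08 for PETE. Over the photosystem list they ran from -1.70 to -2.88 in line a and from -1.88 to -3.20 in line b. CAB1R fell less than each of these genes.

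ACS5 (Os01g0192900, chromosome 1, 5002246 to 5004321), an ACC synthase of ethylene synthesis, had deposited levels of 56.0 and 5.23 FPKM in wild type of 5 and 12 days, and of 0.819 and 0.991 FPKM in lines a and b. It was 6.38-fold lower than 12-day wild type in line a (log2 -2.67 ± 1.03, deposited q = 0.00152) and 5.28-fold lower in line b (log2 -2.40 ± 1.08, deposited q = 0.00525). A second reading of the deposited table, in which the test statistic is taken as a normal deviate, ended both calls. The other ACC synthases with a symbol, ACS1 and ACS2, had deposited levels of 1.79 FPKM or less in every group and were tested in none. ACO1, an ACC oxidase, had the opposite order in the wild type, at 10.3 FPKM at 5 days and 16.1 at 12 days (deposited log2 0.65 ± 0.36, called higher). A second locus written down as an ACC oxidase, Os09g0451400, whose symbol was not found in RefSeq, was called lower at 12 days (52.8 to 31.6 FPKM, deposited log2 -0.74 ± 0.24).

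KAO (Os06g0110000, chromosome 6, 580669 to 586443), kaurenoic acid oxidase of gibberellin synthesis, had deposited levels of 17.1 and 4.65 FPKM in wild type of 5 and 12 days, and of 3.06 and 2.77 FPKM in the lines. The knockout lines were not called different from 12-day wild type (deposited log2 -0.60 ± 0.57 and -0.75 ± 0.62, q = 0.140 and 0.0872). Of 11 other gibberellin loci written down, 7 were tested between the wild types in the authors' deposited table, 1 was called higher at 12 days, 1 was called lower and 5 were not called. The higher one was KS1, kaurene synthase (log2 0.79 ± 0.29), and the lower one was Os01g0757200 (4.89 to 1.22 FPKM, log2 -2.00 ± 0.77), 1 of 5 of these loci whose symbol was not found in RefSeq. Against 12-day wild type, 5 were tested in line a (1 higher, 1 lower) and 6 in line b (2 higher, 1 lower). The DELLA repressor SLR1 stood at 78.9 and 78.5 FPKM and the receptor GID1 at 28.9 and 30.2 FPKM in wild type of 5 and 12 days. GID1 reached 98.2 FPKM in line a and 103 in line b and was called higher than 12-day wild type in both (deposited log2 1.70 ± 0.21 and 1.77 ± 0.21). The lists for ethylene and gibberellin were written after values had been seen.

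SPL18 (Os10g0195600, chromosome 10, 6639764 to 6645325), an acyltransferase gene, was deposited at 17.7 FPKM in the 5-day seedlings, at 5.56 in the older wild type, and at 5.56 and 5.14 in lines a and b. The 3 values at 12 days were close together, and neither line was called different from 12-day wild type (log2 -0.0008 ± 0.42 and -0.11 ± 0.42).

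Across the 60 loci the deposited level in 5-day wild type ran from 5.22 FPKM to 840, with a median of 15.4. The medians of the 12-day groups were 2.35 FPKM (wild type), 1.77 (line a) and 1.25 (line b). In 5-day wild type 6 loci reached 100 FPKM, 22 reached 20 FPKM and 21 were under 10 FPKM. Many were not silent later, since 21 of the 60 loci still reached 5 FPKM in at least 1 of the 12-day groups. By contrast 9 were under 1 FPKM in all 3, and 4 of those were listed at 0 in all 3. The 4 were Os11g0211650 (18.5 FPKM at 5 days), Os05g0426066 (6.47), Os06g0481400 (5.98) and Os10g0504650 (5.22), for which no fold can be given.

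**Figure D2:**
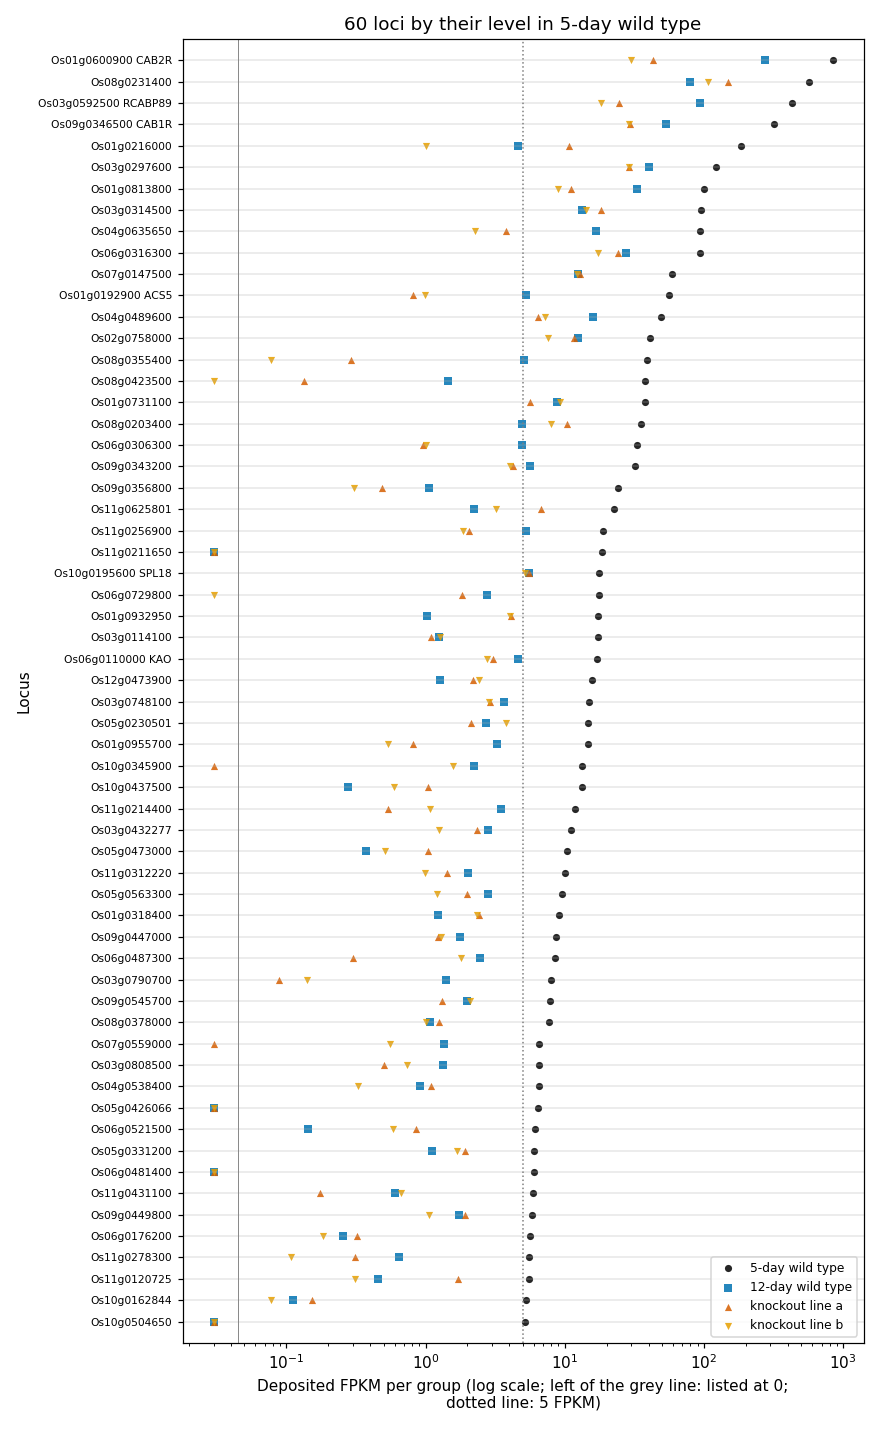
Deposited FPKM (log scale, 1 value per group with no error available) of the 60 loci, ordered by 5-day wild type, in 5-day wild type, 12-day wild type and knockout lines a and b, with symbols left of the grey line for values listed at 0. By the choice of loci the 5-day point lies right of all others in every row, and the 12-day points of 21 loci still reach the dotted line at 5 FPKM.

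Over the other 56 loci the 5-day level was 3.02 to 34.3 times the highest 12-day level, with a median of 4.72. For 22 of these loci the ratio was under 4, and for 8 it was 10 or more. Os10g0162844 had the largest ratio, but at a low level (5.29 FPKM against 0.0781 to 0.154). Os08g0423500 followed at a ratio of 26.0, with 37.8 and 1.45 FPKM in the wild types, 0.134 in line a and a listed 0 in line b. Os09g0356800 had a ratio of 22.8, with 24.0 FPKM against 1.05, 0.486 and 0.307. Among loci at 100 FPKM or more the widest ratio was that of Os01g0216000, at 17.3.

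Near the thresholds the choice was a matter of small differences. Just inside the ratio of 3 lay Os01g0813800 at 3.02, Os09g0449800 at 3.04, Os03g0297600 at 3.06, and CAB2R and Os04g0489600 at 3.08 each. Just outside lay Os01g0720500 at 2.98, Os02g0240100 at 2.97, Os09g0286600 at 2.92, Os08g0209000 at 2.82 and Os11g0655900 at 2.81. Os01g0720500 was higher in level than any of the 60 loci, at 2671 and 897 FPKM in the wild types and 69.8 and 14.5 in lines a and b. At the level threshold Os10g0504650 lay just inside at 5.22 FPKM and Os09g0547000 just outside at 4.98 FPKM.

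The deposited tests against 5-day wild type describe how precise the chosen differences were, and nothing is read from their number because the choice used them. Of the 60 loci 58 were tested in each, and 37 were called lower in 12-day wild type (13.5% of all tested loci were), 36 in line a (26.2% of all) and 35 in line b (26.6% of all). In all 3 comparisons 27 loci were called, in none 14 and in some 19. Of the 22 loci at 20 FPKM or more 18 were called in all 3, and of the 38 under 20 FPKM 9 were. The median implied error of the log2 ratio between the wild types was 0.82 for these loci and 0.33 for all tested loci.

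**Figure D3:**
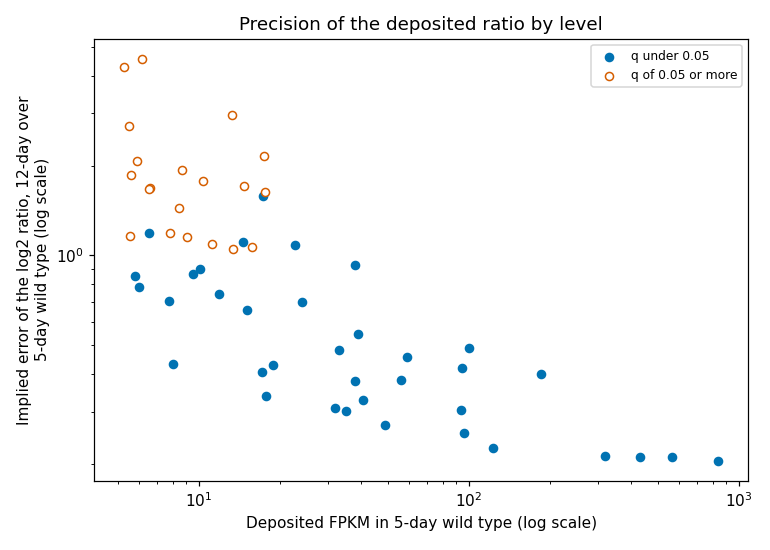
Implied error of the deposited log2 ratio of 12-day over 5-day wild type (log scale) against deposited FPKM in 5-day wild type (log scale), 1 point per locus among the 60 with a finite ratio and a test, filled where q was under 0.05 and open otherwise. The open points all lie under 20 FPKM in 5-day wild type.

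The comparisons among the 12-day groups were not used by the choice. It did set a ceiling on each group, which the set of all tested loci does not have. Line a was tested against 12-day wild type for 24 of the 60 loci in the authors' deposited table, and 4 were called higher and 11 lower (21.3% and 23.5% of all tested loci). Line b was tested for 23, of which 2 were called higher and 12 lower (22.2% and 24.2% of all). The median deposited log2 ratio of the loci tested was -0.54 in line a and -0.75 in line b, beside -0.004 and 0.0006 over all tested loci. A further 36 loci were tested in neither line, so these counts and medians do not stand for all 60. Among 56 loci above 0 in some 12-day group, 12-day wild type was the highest of the 3 in 32 (57.1%), as it was in 7149 of all 14312 such single-gene loci at 5 FPKM or more in 5-day wild type. Line a was the highest in 18 (32.1%, and 23.7% of all) and line b in 6 (10.7%, and 26.3% of all).

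**Figure D4:**
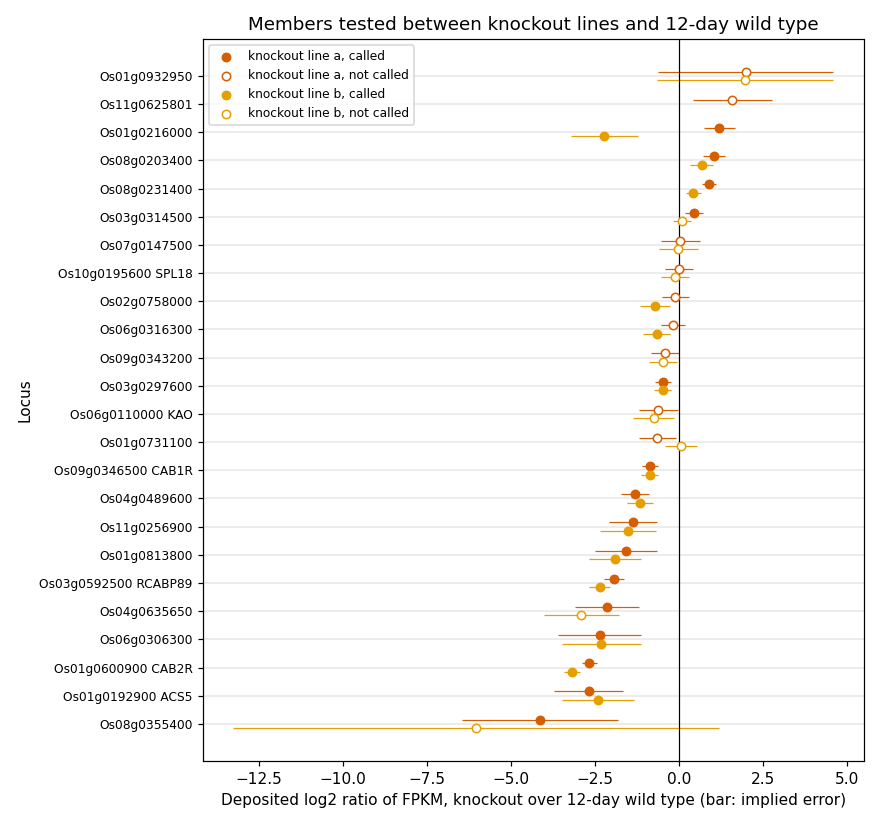
Deposited log2 ratio of knockout over 12-day wild type with its implied error (bars) for the 24 loci tested, line a above line b in each row, filled where q was under 0.05. Both lines share 1 control group, and Os01g0216000 is the only locus called in opposite directions in these comparisons.

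Both lines were called lower than 12-day wild type at 9 of the 23 loci tested in both (21.3% of all loci tested in both were), among them CAB2R, RCABP89, CAB1R and ACS5. The other 5 carry no symbol here. Os06g0306300 stood at 32.9 and 4.95 FPKM in the wild types and at 0.966 and 1.01 in the lines, with deposited knockout log2 ratios of -2.36 ± 1.23 and -2.30 ± 1.19. Os01g0813800 stood at 99.7, 33.0, 11.0 and 8.89 FPKM (deposited log2 -1.58 ± 0.92 and -1.89 ± 0.78), over a deposited locus of 45927 bases. The ratios were smaller for Os11g0256900 (-1.37 ± 0.72 and -1.51 ± 0.82), Os04g0489600 (-1.31 ± 0.41 and -1.15 ± 0.39) and Os03g0297600 (-0.47 ± 0.25 and -0.47 ± 0.25). With the statistic taken as a normal deviate, Os04g0489600 alone of these 5 kept its calls, in both lines. The largest called drop was that of Os08g0355400, called in line a only (deposited log2 -4.13 ± 2.33, deposited q = 0.0438). That call was lost under the normal reading.

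Both lines were called higher than 12-day wild type at 2 of these 23 loci (18.5% of all). Os08g0231400 (chromosome 8, 7994403 to 7995717) was second in level at 5 days, with 568 and 79.8 FPKM in the wild types and 149 and 108 in lines a and b. Its deposited log2 ratios were 0.90 ± 0.22 in line a (q = 0.000253) and 0.43 ± 0.22 in line b (q = 0.00209). Os08g0203400 stood at 35.1, 4.96, 10.3 and 7.94 FPKM in the same order, with deposited log2 ratios of 1.06 ± 0.32 and 0.68 ± 0.34. Under the normal reading both loci kept the call in line a and lost that in line b.

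Line b was called lower than line a at 5 of 18 loci tested in the authors' deposited table and higher at none (2.52% and 2.47% of all tested loci). Os01g0216000 (chromosome 1, 6340835 to 6344286) had the widest gap, with 186 and 4.64 FPKM in the wild types, 10.7 in line a and 1.00 in line b. Line a was thus 2.31-fold above 12-day wild type (log2 1.21 ± 0.45, deposited q = 0.000253), and line b 4.64-fold below it (log2 -2.21 ± 1.00, deposited q = 0.0152). The deposited log2 ratio of line b over line a was -3.42 ± 0.96 (q = 0.00132). Under the normal reading this gap and the line a call were kept, and the line b call against 12-day wild type was lost. The other 4 gaps were small, with deposited log2 ratios of -0.52 ± 0.26 for CAB2R, -0.46 ± 0.21 for Os08g0231400, -0.38 ± 0.28 for Os08g0203400 and -0.36 ± 0.27 for Os03g0314500. All 4 were lost under the normal reading. The median over the 18 loci was -0.34, beside -0.006 over all tested loci.

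The 60 loci were shorter on the genome than other loci of such levels, a property the choice did not use directly. Their median length in the deposited table was 1541.5 bases, against 4085 over all 14316 single-gene loci at 5 FPKM or more in 5-day wild type. Loci under 500 bases made up 7 of the 60 (11.7%), against 84 of the 14316 (0.587%). These 7 stood at 6.47 to 17.6 FPKM at 5 days. None of them was called lower in all 3 comparisons with 5-day wild type, and 5 were called in none. A short transcript gathers few fragments, and no depth is known here, so the part of counting error in these values was not tested. Identifiers that do not end in 00 belonged to 11 of the 60 loci (18.3%), against 456 of the 14316 (3.19%).

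The loci were spread over all 12 chromosomes. Chromosomes 1, 3, 6 and 11 held 8 each, and chromosomes 2 and 12 held 1 each. Chromosome 11 held 13.3% of the 60 loci and 4.88% of the 14316, and chromosome 2 held 1.67% and 12.1%. The closest pair, Os11g0211650 and Os11g0214400, had 13 single-gene loci between them. Loci outside the choice lay closer, as a locus of 2 genes, Os08g0423600 and Os08g0423850, passed the same thresholds 27.0 kb from Os08g0423500. Its deposited level was 6.68 FPKM in 5-day wild type and it was listed at 0 in the other groups. A locus with no annotated gene likewise lay 1.795 kb from Os11g0211650.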

How the data were processed

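The submitters' processing notes name HISAT2, Trimmomatic, FastQC, Cuffdiff and Cufflinks, and the build IRGSP-1.0. Versions, the annotation release and multi-read handling are not given in the sources used here. The authors deposited 1 FPKM value per group over 3 replicates, with a log2 ratio, a test score (the Cuffdiff statistic), a p-value and a q-value for each of 6 pairwise comparisons, 108602 tests in all. The smallest deposited p-value was 5e-05. Coordinates are printed as the authors' table gives them.

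Calls took loci with a completed test and a deposited q below 0.05. The implied error is the deposited log2 ratio divided by the deposited score, and has no value where a group is at 0. As an alternative, a normal p of that score was adjusted by Benjamini-Hochberg over all completed tests with an implied error (Python 3.11.15, scipy 1.17.1). It was also run on simulated scores drawn as normal deviates, which cannot show whether the deposited score is one. The members and lists were chosen with earlier results of these data known. Symbols were kept only where RefSeq (ASM3414082v1) holds them on the same chromosome at a matching position. Counted from either end, the RefSeq and deposited positions had to differ by at most 0.02 of the chromosome length. Named were OsC3'H1, every member with a symbol, and some of the members highest in level or ratio, nearest the thresholds or called between 12-day groups. Os04g0635650, Os02g0758000 and Os06g0316300, each called lower than 12-day wild type in 1 line only, are not described further. Counts by gene family and promoter motifs, both planned, were not run because no table used here ties these identifiers to products or promoters.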

Additional observations from a re-analysis of the deposited data

Results flagged for a closer look

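Line b differed from line a by the deposited Cuffdiff test at 5 of the 18 loci tested, all lower (2.52% of all tested loci were called lower and 2.47% higher). The deposited log2 ratio of line b over line a was -3.42 for Os01g0216000, the one locus called in opposite directions against 12-day wild type. It was -0.52 for Os01g0600900 (CAB2R), -0.46 for Os08g0231400, -0.38 for Os08g0203400 and -0.36 for Os03g0314500. Of the 5 calls, that of Os01g0216000 alone was kept with the normal p of the deposited statistic. The letters of the lines are given opposite ways in the labels, so the sign holds for the titles only.

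Loci with no annotated gene were not part of the choice, and 8 of 665 such loci passed the same level and ratio thresholds. One of them, on chromosome 11 from 5795369 to 5797762, lay 1.795 kb from Os11g0211650 and had a deposited level of 6.20 FPKM in 5-day wild type. Both were listed at 0 in the other 3 groups.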

How the results depend on the processing

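The number of loci chosen was 153 with at least 1 FPKM in 5-day wild type, 39 with at least 10 FPKM, 162 with a ratio of 2, 28 with a ratio of 5, and 27 with q under 0.05 in all 3 comparisons. It was 60, the same loci, with FPKM rescaled by median ratios, and 63 with several-gene loci admitted. With q under 0.01, loci called lower numbered 6 in line a, 7 in line b and 3 in line b against line a. With the normal p of the deposited statistic they numbered 4, 5 and 1, and loci called higher in line b numbered 0. Only 4 of the 5 in line b were also called by the deposited q, so the normal reading added a call as well as removing calls. With a 2-fold minimum, loci called higher numbered 2 in line a and 0 in line b, and loci lower in line b than in line a numbered 1. With a ratio of 5, loci called higher numbered 2 and 0, and loci called lower 5 in line a, 4 in line b and 2 in line b against line a. Of the calls of single loci, 21 were kept and 13 lost at q under 0.01, 12 were kept and 22 lost with the normal p. With 1 added to FPKM the median log2 ratios of the loci tested were -0.47 in line a, -0.64 in line b and -0.31 in line b over line a, and with 0.1 added they were -0.53, -0.73 and -0.34. These medians have no replicate error. No paired analysis was possible because the table holds 1 value per group, and no replicate could be left out. Depth is unknown, so differences among low loci could not be judged.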
